A study of Mus musculus with 4 samples.

Results

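Neighbouring binding sites whose centres were offset by more than 200 and at most 1000 bp are described here, from ChIP-seq of mouse (Mus musculus) total bone marrow. The antibodies were directed at Ldb1, at Scl/Tal1, which is written Tal1 from here on, and at Gata1, and control IgG served as background. The deposited site lists of the 3 antibodies were pooled over chromosomes 1 to 19, and sites whose neighbouring centres lay at most 200 bp apart were joined into places. A place was kept if it held sites of 1 antibody only and if the nearest site centre of another antibody lay over 200 and up to 1000 bp away. This gave 872 offset places among 9522 places in all, and among 5495 places of 1 antibody. The members were thus chosen by the site calls and the distances between them, so the calls, the bounds of the offsets and the tags behind the calls are given as a description with no test.

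All 4 groups were freshly isolated, formaldehyde-fixed bone marrow cells, with 1 library each. The sources used here do not state strain, age or sex, or whether animals were pooled. The Ldb1 and Tal1 antibodies came from Santa Cruz and the Gata1 antibody from Abcam. The libraries held between 5767555 and 7873298 aligned tags, of which 63.2% to 89.0% had a distinct position and strand, and tags were 25 bases long, or 36 in the IgG library. No library had a replicate, so differences have no replicate check, and every interval covers counting error only, since amplified tags are not independent molecules. Antibody, depth, fragment length and library cannot be told apart. Total bone marrow mixes many cell types, so a low level can reflect fewer cells with the protein on the DNA or less of it per cell, and these cannot be told apart. A genome sequence or gene annotation of the files' build, mm8, was not used here, so positions carry no gene name and no sequence.

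Ldb1 is an adaptor that does not bind DNA itself and is brought to chromatin by partners. In erythroid cells it joins a complex in which Lmo2 bridges it to Tal1, a helix-loop-helix protein that recognises E-box motifs together with an E-protein partner, and to Gata1, a zinc finger factor that binds GATA motifs. A composite element of an E-box and a GATA motif a short distance apart is the best-known binding site of this complex, and a single ChIP fragment spans both motifs. Called sites of these proteins at the offsets described here are further apart than the parts of such an element.

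Tal1 had the most offset places, 390, against 309 for Gata1 and 173 for Ldb1. As a share of each antibody's places without the others, this was 24.3% for Tal1 (exact Clopper-Pearson 95% interval 22.2 to 26.5, 390 of 1603), 12.8% for Gata1 (11.5 to 14.3, 309 of 2405) and 11.6% for Ldb1 (10.05 to 13.4, 173 of 1487). The next 800 bp, from 1000 to 1800 bp, held 252 further places of 1 antibody, so the offset range held 3.46 times as many as an equally wide range beyond it. That ratio was 4.38 for Tal1, 3.20 for Ldb1 and 2.83 for Gata1. Each offset place held a single called site.

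Within the allowed range the offsets were mostly short. The median over all 872 places was 380 bp (binomial 95% interval of the median 350 to 400, quartiles 270 and 600 bp), and 315 places (36.1%) lay at most 300 bp from the neighbour while 98 lay more than 800 bp away (11.2%). By antibody pair, taken both ways, the median was 340 bp for Ldb1 and Tal1 (320 to 390, 263 places), 390 bp for Ldb1 and Gata1 (350 to 440, 179 places) and 410 bp for Tal1 and Gata1 (370 to 440, 430 places). Tal1 with Gata1 was the most frequent pair. The order of the medians depended on the joining limit, since at 100 bp Ldb1 with Gata1 had the shortest, 200 bp against 230 bp for both others.

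Gata1 places lay farthest from their neighbours, with a median of 440 bp (400 to 480), against 360 bp for Ldb1 places (330 to 410) and 340 bp for Tal1 places (320 to 380). The interval for Gata1 did not overlap that for Tal1 but met that for Ldb1. Gata1 places lay a median of 450 bp from Tal1 (400 to 510, 205 places) and 400 bp from Ldb1 (350 to 490, 104 places). Tal1 places lay 360 bp from Gata1 (320 to 410, 225 places) and 330 bp from Ldb1 (300 to 390, 165 places), and Ldb1 places 365 bp from Tal1 (310 to 480, 98 places) and 360 bp from Gata1 (300 to 440, 75 places). Of the Gata1 places 28.8% were within 300 bp of the neighbour, against 41.0% of the Tal1 and 38.2% of the Ldb1 places. At 68 places sites of both other antibodies were equally near, and these were assigned in the order Ldb1, Tal1, Gata1. At the edges of the rule, 41 places had an offset of 210 bp, the smallest possible on the caller's grid, and 6 had 1000 bp, against 2 in the next step of 10 bp outside. On the other side of the lower bound, 44 pairs of adjacent sites of different antibodies lay exactly 200 bp apart and were joined, against 33 at 210 bp.

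**Figure D1:**
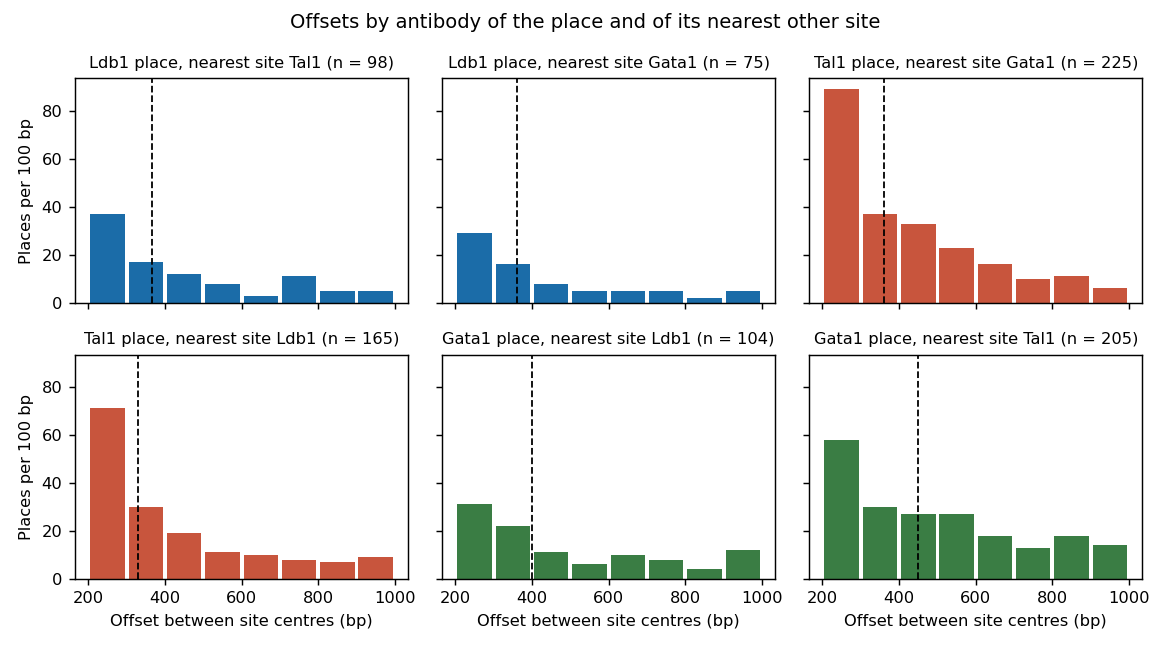
Numbers of offset places per 100 bp of offset (x axis, distance between site centres in bp), for each antibody of the place (colour) and each antibody of its nearest other site, with the median as a dashed line. The first bin, over 200 to 300 bp, is the highest in all 6 panels, and the Gata1 places nearest a Tal1 site have the longest median, 450 bp.

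At 332 of the 872 offset places (38.1%) the nearest other site belonged to a place called for Ldb1, Tal1 and Gata1. Such places made up 2249 of all 9522 (23.6%). Among the places that could be a neighbour, those with a site of another antibody, they made up 28.0% for Ldb1, 28.4% for Tal1 and 31.6% for Gata1, against 41.6%, 43.1% and 29.8% of the actual neighbours. At 449 (51.5%) the neighbouring place was called for the offset place's own antibody too, so that the offset place was an extra site of that antibody beside a shared one. The neighbour was a place of 1 other antibody at 380 (43.6%) and of both others without the own antibody at 43 (4.93%). The own antibody was called at the neighbour for 59.2% of the Tal1 places (231 of 390), 56.1% of the Ldb1 places (97 of 173) and 39.2% of the Gata1 places (121 of 309). Gata1 places lay beside a place of Tal1 alone in 132 cases, their most frequent neighbour, whereas Tal1 and Ldb1 places most often lay beside a place of all 3 (168 and 72 cases).

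Signal was next counted at both sites, as tags within 100 bp of each centre, after each tag was moved along its strand by 0.5 of the fragment length that the caller gave. The windows never overlap, although at the shortest offsets tags of a strong neighbour can still reach the other window. Over all offset places the own antibody had 16.2 tags on average at the place and 45.0 at the neighbour, and more tags at the place in 444 of 872 cases (50.9%, 47.5 to 54.3). This even split hid a separation by whether the own antibody was called at the neighbour. Where it was called there, the place had more own tags in 75 of 449 cases (16.7%, 13.4 to 20.5). Where it was not, the place had more in 369 of 423 cases (87.2%, 83.7 to 90.3). The calls were made from these same tags, so the separation is built into the split and is given as a description.

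The own signal at the place itself was alike in both kinds of place. Its median was 14 tags with quartiles of 12 and 18 where the own antibody was also called at the neighbour, and 14 with quartiles of 11 and 18 where it was not. The neighbour's own-antibody signal differed, with a median of 42 tags (quartiles 18 and 117, highest 574) in the first kind and 6 (4 and 9, highest 247) in the second. The largest gap was for Tal1, with a median of 86 tags at neighbours called for Tal1 against 16 at the place. For Ldb1 these medians were 61 and 14, and for Gata1 23 and 13. Gata1 thus had the smallest difference between an offset site and the shared site beside it, on the scale of raw tags in its own library.

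**Figure D2:**
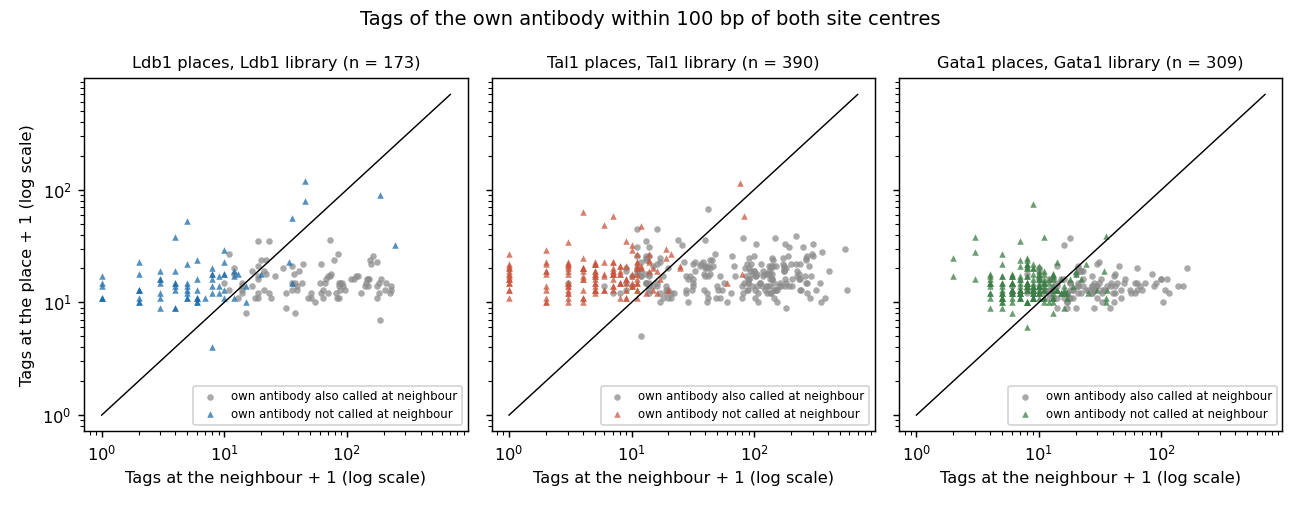
Tags of the place's own antibody within 100 bp of the neighbour (x axis) and of the place (y axis), each plus 1 on log scales, with 1 point per offset place and the diagonal as equality. Grey points, with the own antibody also called at the neighbour, lie mostly right of the diagonal (366 of 449), and coloured points, without such a call, mostly left of it (369 of 423).

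The position of the highest tag density was taken from the same tags, sites and split, so it is another description and no separate support. Density was taken in windows of 75 bp each side from 200 bp before the place to 200 bp past the neighbour, and a maximum counted as at a site if it lay within 100 bp of it. Where the own antibody was not called at the neighbour, its maximum lay at the place in 305 of 423 cases (72.1%), at the neighbour in 8.04% and elsewhere in 12.1%, and 7.80% had equal maxima in different positions. Among these, the share at the place was 82.4% for Tal1 places, 77.6% for Ldb1 places and 61.2% for Gata1 places. Where the own antibody was also called at the neighbour, its maximum lay at the neighbour in 75.1% of 449 cases and at the place in 10.5%. The antibody of the neighbouring site had its maximum at the neighbour in 82.6% of all 872 cases and at the place in 3.44%. This is not separate from the 72.1% above, since 348 of the places were one another's neighbour in pairs. For these, the 268 own maxima at the place are also the 268 maxima of the neighbour's antibody at the neighbour, seen from the other end.

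The remaining antibody, to which neither site of the pair belongs, also had more tags at the neighbour in sum, by an amount that differed with the neighbour's make-up. Where the own antibody was also called at the neighbour, it had its maximum at the neighbour in 77.3% of cases. Most of these neighbours, 332 of 449, were places of all 3, so it was called there too. Beside a place of 1 other antibody its maximum was at the neighbour in 26.3% of 380 cases and at the place in 24.7%, and 36.3% were elsewhere. The ratio of its tags at the place to those at the neighbour was 0.929 (exact conditional 95% interval 0.872 to 0.989) there, against 0.114 (0.109 to 0.119) in the first group. Of these 380 places, 348 were one another's neighbour in pairs, so each such pair was counted from both ends. For them the tags of the remaining antibody are equal by construction, 1795 at the places and at the neighbours. Nothing is therefore read from the near-even values beside 1 other antibody. IgG had its maximum at the place in 140 of the 872 cases and at the neighbour in 157, and those pairs gave 63 of each.

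**Figure D3:**
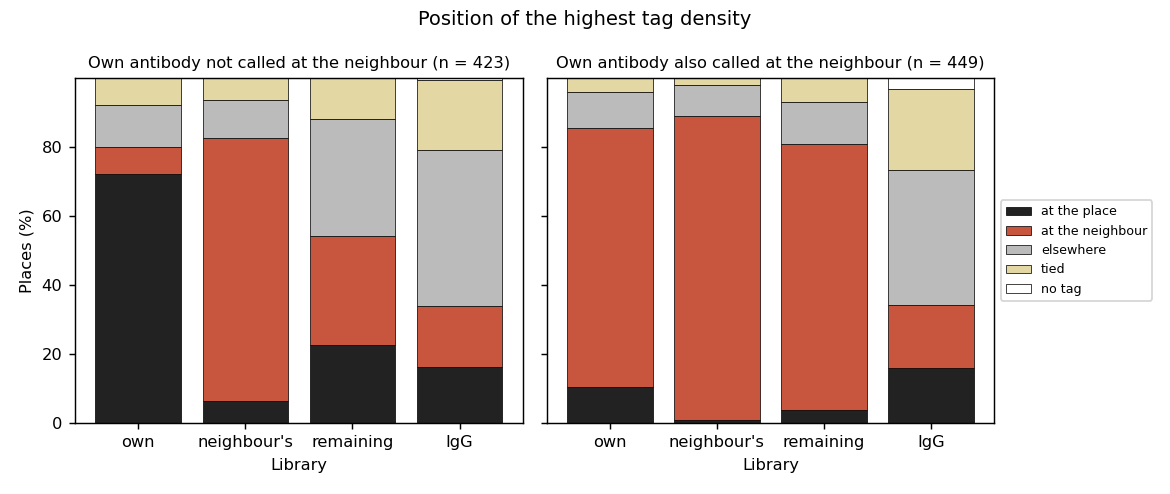
Percent of offset places (y axis) whose highest tag density lay at the place, at the neighbour, elsewhere between or beside them, or tied, for the own, the neighbour's and the remaining antibody's library and for IgG, split by whether the own antibody was called at the neighbour. The own library peaks at the place in 72.1% of cases on the left and in 10.5% on the right.

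Between the sites the own signal fell. At the 423 places with an offset of 400 bp or more, where a window of the same width fits between the others, the own antibody averaged 15.96 tags at the place, 5.29 halfway and 29.9 at the neighbour. The middle was below both sites in 312 of these places (73.8%, 69.3 to 77.9) for the own antibody, in 248 (58.6%) for the neighbour's and in 215 (50.8%) for the remaining one. IgG gave 85 (20.1%), but its mean of 1.501 tags at the place leaves little room for a dip. With the own antibody also called at the neighbour this was 178 of 197 (90.4%, 85.3 to 94.1), and otherwise 134 of 226 (59.3%, 52.6 to 65.8), where the neighbour's antibody had 57.1%. A call at both sites already asks for a rise at both, so nothing is read from the difference between the groups. Over all offsets, 348 of the places without an own call at the neighbour form the pairs counted from both ends above. In such a pair, the own dip is also the dip of the neighbour's antibody, seen from the other end. The 59.3% and 57.1% are therefore not separate, and the interval treats both ends as independent. The ratio of own tags at the place to those at the neighbour, with no own call at the neighbour, was 1.65 (1.56 to 1.74) at offsets up to 400 bp, 2.32 (2.14 to 2.51) over 400 to 700 bp and 1.85 (1.70 to 2.03) beyond. Without the pair on chromosome 11 with many IgG tags the last value was 2.42 (2.18 to 2.69), and without a single place on chromosome 17 the first was 1.85 (1.75 to 1.96).

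**Figure D4:**
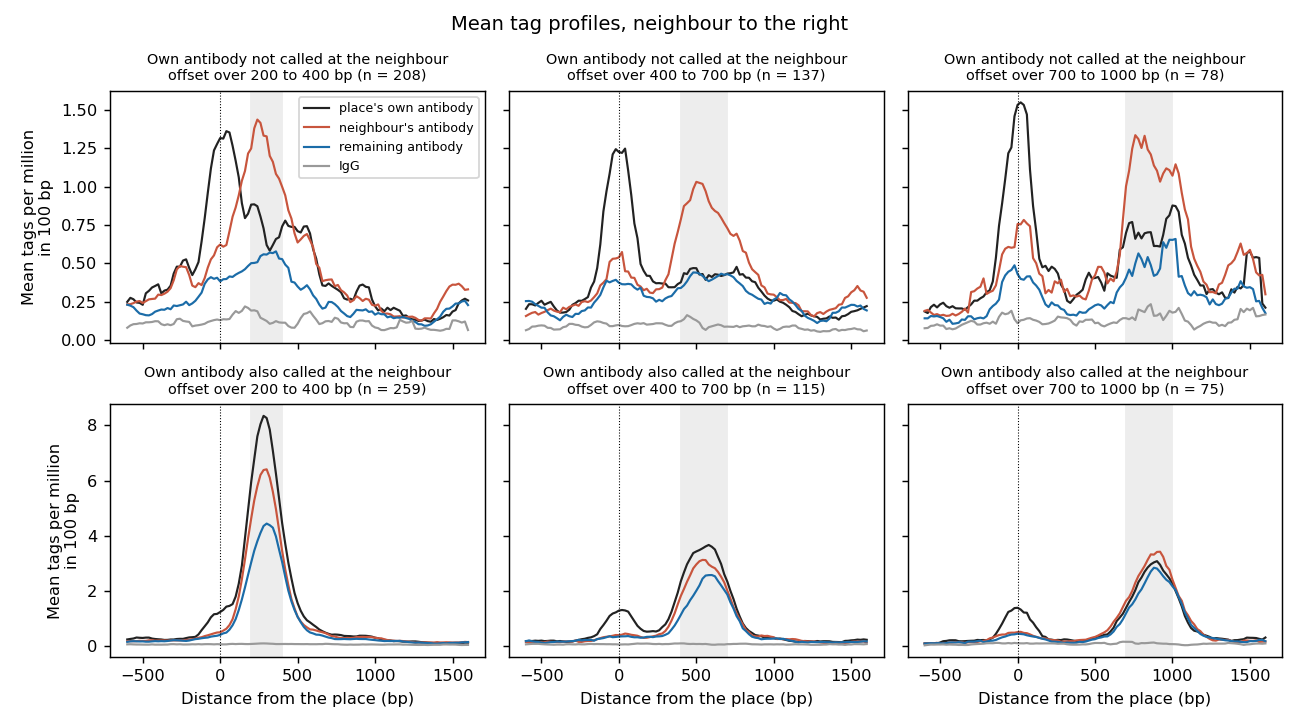
Mean tags in 100 bp windows, scaled to 1000000 tags per library (y axis), against distance from the offset place (x axis, bp), turned so that the neighbour lies to the right in the grey band, for 3 ranges of offset and by whether the own antibody was called at the neighbour. Above, the own antibody is highest at or next to 0 and the neighbour's antibody in the band, and below, all 3 antibodies are highest in the band while the own antibody has a second, lower rise at 0.

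In 174 cases, a pair of places of 1 antibody each were one another's neighbour. There were 115 such pairs of Tal1 and Gata1, 38 of Ldb1 and Gata1 and 21 of Ldb1 and Tal1, with median offsets of 400, 345 and 420 bp. Both antibodies had more tags at their own site in 139 pairs (79.9%, 73.2 to 85.6), and both had more at the same site in 30 (17.2%, 11.9 to 23.7). The share with each at its own site was 94 of 115 for Tal1 and Gata1, 32 of 38 for Ldb1 and Gata1, and 13 of 21 for Ldb1 and Tal1. Each site of a pair was called for its own antibody only, which already favours more of that antibody's tags there. These shares, and the counts of the called antibodies in the pairs below, are therefore a description.

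In the pairs of Tal1 and Gata1, the libraries differed in how far their tags leaned to their own site. The Tal1 library had a median of 17 tags at the Tal1 site and 4 at the Gata1 site, a ratio of sums of 3.56 (3.24 to 3.92), with more at the Tal1 site in 112 of 115 pairs. The Gata1 library had 13 at the Gata1 site and 7 at the Tal1 site, with more at the Gata1 site in 97 pairs. Its ratio of sums, Tal1 site to Gata1 site, was 0.557 (0.514 to 0.604). Ldb1, called at neither, had a median of 4 tags at both, and more at the Tal1 site in 65 pairs and at the Gata1 site in 40 (ratio of sums 1.29, 1.14 to 1.47). IgG moved the same way as Ldb1, with 226 tags at the Tal1 sites and 123 at the Gata1 sites (1.84, 1.47 to 2.31). The Tal1 sites were also the side with more Tal1 and fewer Gata1 tags. The part of this IgG difference in the Ldb1, Tal1 and Gata1 values was not tested.

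In the pairs of Ldb1 and Gata1, the Ldb1 library had a median of 11.5 tags at the Ldb1 site against 3 at the Gata1 site, and more at the Ldb1 site in 37 of 38 pairs. Tal1, called at neither, was near even there, with more at the Ldb1 site in 17 pairs and at the Gata1 site in 19 (0.910, 0.731 to 1.13). IgG had 53 tags at the Ldb1 sites and 27 at the Gata1 sites of these pairs (1.96, 1.21 to 3.25). In the 21 pairs of Ldb1 and Tal1, the ratio of tags at the Ldb1 site to those at the Tal1 site was 1.32 for Ldb1 (1.16 to 1.504) and 0.556 for Tal1 (0.484 to 0.637). A single pair on chromosome 11 with many IgG tags weighed on the first value, which was 2.03 (1.73 to 2.40) without it. Over the 16 pairs with fewer than 10 IgG tags at both sites the Ldb1 ratio was 1.78 (1.44 to 2.21) and the Tal1 ratio 0.328 (0.263 to 0.405). IgG had 153 tags at the Ldb1 sites of all 21 pairs and 101 at the Tal1 sites, and 24 and 27 in the 16.

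IgG was also compared between the site and its neighbour over all offset places of an antibody, including those of the pairs above. At Tal1 places IgG had more tags at the place in 180 cases and at the neighbour in 115, and at Gata1 places in 73 and 156. These contrasts are not separate, since the 115 pairs of Tal1 and Gata1 are in both, from opposite ends. In those pairs IgG had more tags at the Tal1 site in 66 and at the Gata1 site in 25. The IgG ratio of place to neighbour was 0.545 (0.468 to 0.635) for Gata1, 1.07 (0.960 to 1.19) for Tal1 and 1.11 (0.942 to 1.31) for Ldb1. Without pairs in which either site had 10 or more IgG tags within 250 bp, these were 0.537 (0.458 to 0.628), 1.38 (1.22 to 1.57) and 0.952 (0.770 to 1.18). Gata1 places thus had the lower IgG of the pair with and without those pairs. For Tal1 the direction differed with the neighbour, with a ratio of 1.38 (1.18 to 1.62) beside Gata1 and 0.848 (0.731 to 0.984) beside Ldb1. The IgG library was the caller's background for all 3 antibodies, and its part in which site was called was not tested.

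Sites without a call were compared with the caller's minimum of distinct tags. Of the 423 neighbours without a call for the own antibody, 48 (11.3%, 8.49 to 14.8) held at least the caller's minimum of distinct own tags within 100 bp, a number of 8 in the Tal1, 9 in the Ldb1 and 11 in the Gata1 library. The same window reached the minimum at 330 of the 423 called sites (78.0%). The median at the uncalled neighbours was 3 distinct Tal1, 4 distinct Ldb1 or 7 distinct Gata1 tags, and 64.4% of the called Gata1 sites reached that minimum in the same window. In the other direction, the neighbour's antibody reached its minimum at 73 of the 872 offset places (8.37%). The caller also weighs strand and the IgG background, so reaching the number is not the same as passing.

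Level over IgG was counted within 250 bp, with 1 tag added to both counts, and a place was taken as raised at 3 times IgG or more. Over all 9522 places Ldb1 was raised at 74.0%, Tal1 at 79.0% and Gata1 at 78.3%. At offset places not called for it, Ldb1 was raised at 406 of 699 (58.1%), Tal1 at 330 of 482 (68.5%) and Gata1 at 391 of 563 (69.4%). These shares lie below those over all places, as the choice of places without a call implies. Among all places lacking a call of the antibody, the raised share was lower than at the offset places. It was 47.7% (Ldb1), 57.8% (Tal1) and 54.8% (Gata1). Neither difference was tested, and nothing is read from them. The window can hold tags of the neighbour. Ldb1 was raised at 71.0% of the offset places not called for it that had an Ldb1 site at the neighbour. Without a site of the tested antibody at the neighbour, Ldb1 was raised at 132 of 313 offset places (42.2%, 36.6 to 47.9), Tal1 at 59 of 92 (64.1%, 53.5 to 73.9) and Gata1 at 48 of 92 (52.2%, 41.5 to 62.7). At places of 1 other antibody with no further site within 1000 bp the shares were 43.9%, then 53.1%, then 47.7%. The intervals of these more distant places were 42.2 to 45.6, 51.4 to 54.8 and 45.8 to 49.7. Each overlapped that of the offset places, for Tal1 only from 53.5 to 54.8. Overlap does not show that shares are equal, and the differences were not tested. Pooled over places the fold over IgG was 2.88, 4.37 and 1.61, against 3.03, 3.64 and 3.09 at the distant places. The low Gata1 value came with high IgG at part of the 92 places, and it was 4.05 over the 75 with fewer than 10 IgG tags. The distant value of 3.09 was not filtered in this way.

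The strongest offset places, by the caller's tag number in each ordered pair of antibodies, are described in 3 sorts, grouped after their values were seen. In the first, the called site was wide and its centre fell beside the peak. The Ldb1 site on chromosome 17 from 49485671 to 49486091 had 137 tags by the caller and lay 210 bp from a Tal1 site, from 49486071 to 49486111, in a place of Tal1 and Gata1. Within 100 bp of the Ldb1 site's centre there were 31 Ldb1, 78 Tal1, 23 Gata1 and 0 IgG tags, and at the neighbour 247, 347, 103 and 1. All 3 antibodies had their maximum within 10 bp of the neighbour, although Ldb1 was not called there. The Ldb1 site, 420 bp wide, overlapped the Tal1 site. This place alone gave 247 of the 970 Ldb1 tags counted at neighbours without an Ldb1 call.

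The Tal1 site on chromosome 12 from 111965491 to 111965931 was of the same sort. It lay 220 bp from an Ldb1 site, from 111965911 to 111965951, in a place of Ldb1 and Gata1, and had 14 Tal1 tags at its centre against 59 at the neighbour. Ldb1 had 8 and 76 tags there, and Gata1 4 and 27. The Ldb1 site on chromosome 9 from 108198611 to 108199131 was 520 bp wide, with a Tal1 site at its lower edge, from 108198611 to 108198671, and a Gata1 site was equally far from its centre. Its own maximum lay at -195 bp, where positive positions point to the Tal1 site. That is the edge of the span searched, which began 200 bp before the place, so a higher density farther out was not looked for. Ldb1 had 17 tags at the centre against 19 at the Tal1 site. Called sites overlapped the neighbouring site at 36 of the 872 offset places (4.13%, 2.91 to 5.67). The wider site of the pair had a median of 520 bp there, and in 15 of the 36 it was the offset place's own site. The own sites had a median width of 240 bp and the neighbouring sites 390 bp. The other 836 places were a median of 60 bp wide and 290 bp from the edge of the neighbouring site.

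In the second sort, tags of the own antibody rose at the place and hardly at the neighbour. The Tal1 site on chromosome 7 from 18307511 to 18307551 lay 380 bp from a Gata1 site, from 18307891 to 18307931. It had 57 Tal1 tags (28 distinct) against 6 at the neighbour, while Gata1 had 10 and 12, Ldb1 8 and 1, and IgG 1 at both. The Gata1 site on chromosome 5 from 111079871 to 111080551 lay 730 bp from a Tal1 site, from 111079431 to 111079531, and had 74 Gata1 tags (59 distinct) against 8. Tal1 had 7 tags there, of which 1 was distinct, against 10 at its own site, of which 8 were distinct. The Ldb1 site on chromosome 16 from 49778931 to 49778971 lay 1000 bp from a Gata1 site, at the upper bound, and had 37 Ldb1 tags against 3 at the neighbour, with 7 and 13 Gata1 tags. In all of these pairs each of the called proteins had more tags at its own site. For Gata1 at the first and Tal1 at the second the gap was only 2 or 3 tags with duplicates kept.

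A lesser difference was seen elsewhere. The Gata1 site on chromosome 8 from 75168611 to 75168851 had a Tal1 site 220 bp away, from 75168491 to 75168531, with 0 Ldb1 tags at both. Gata1 had 38 tags at the place and 34 at the neighbour, with its maximum 135 bp towards the Tal1 site, and Tal1 had 2 and 14. At the Tal1 site on chromosome 13 from 112611031 to 112611171 Tal1 had 30 tags against 13 at a place of Tal1 and Gata1 320 bp away, while Gata1 had 4 and 12. Both had the higher own count at their own centre, unlike the places of the first sort.

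In the third sort, an extra site stood beside a place called for the same antibody. The Tal1 site on chromosome 13 above also meets this description. The Ldb1 site on chromosome 9 from 107833111 to 107833171 had 35 Ldb1 tags, against 72 at a place of all 3 antibodies 440 bp away. Tal1 had 12 and 51 tags at them and Gata1 9 and 40. Beside the Gata1 site on chromosome 1 from 93370751 to 93370991, with 31 Gata1 tags against 15, lay a place of all 3 at 660 bp, where Ldb1 had 31 tags against 4 and Tal1 19 against 5. The Gata1 site on chromosome 11 from 115893631 to 115893671 had 36 Gata1 tags against 17 at a place of Ldb1 and Gata1 490 bp away, with 6 and 20 Ldb1 tags and 0 IgG tags at both. At both of these Gata1 places the shared place had fewer Gata1 tags and more tags of the partners. Both were chosen for a high Gata1 tag number, which favours more Gata1 tags at the place. Over all 121 Gata1 places with Gata1 also called at the neighbour, 94 had more Gata1 tags at the neighbour and 22 at the place.

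The offset places with the most IgG tags had few distinct tags. The Ldb1 site on chromosome 9 from 3018771 to 3019491 had 161 IgG tags within 250 bp, and its neighbour, the Tal1 site from 3019451 to 3019491, had 85. The Tal1 site on chromosome 11 from 3001731 to 3002071 had 95, and it formed a mutual pair with the Ldb1 site from 3001011 to 3001291, 750 bp away. At this Tal1 site there were 187 Ldb1, 114 Tal1, 53 Gata1 and 64 IgG tags within 100 bp, but only 41, 28, 27 and 21 distinct ones. Ldb1 was therefore higher at the Tal1 site than at its own, which had 88 tags, and every library was higher on the same side. IgG reached 10 or more tags within 250 bp at 25 of the 872 offset places (2.87%), and 94 had none.

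Offset places were set beside the 4623 places of 1 antibody with no other site within 1000 bp. The median caller tag number was the same in both sets, 9 at Tal1, 10 at Ldb1 and 13 at Gata1 places, and 28.2% of the offset places and 28.7% of the distant ones sat at the caller's minimum. Among Tal1 places these shares were 31.3% and 36.2%. Own tags within 250 bp were higher at offset places, with a median of 4.59 against 3.47 tags per 1000000 for Tal1, 3.77 against 3.14 for Ldb1 and 2.79 against 2.67 for Gata1. That window can hold tags of the neighbour. Of these tags 54.4% were distinct at the Tal1 offset places against 59.9% at the distant ones, 59.5% against 63.2% for Ldb1 and 87.1% against 87.8% for Gata1. By chromosome, offset places made up 9.27% (chromosome 2) to 19.3% (chromosome 13) of the places of 1 antibody, with a median of 16.1%. The 95% interval on chromosome 2 (6.64 to 12.5, 38 of 410) did not reach that median, and the intervals of the other 18 chromosomes included it.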

How the data were processed

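Aligned tags of 4 libraries were deposited as positions on mm8, per the submitters' processing notes, with aligner and settings not given in the sources used here. Sites were called by the authors with SISSRs 1.4 for each antibody against IgG, with 1 tag per position, per the file headers. For each site the deposited lists give a count of tags, a fold ratio over background and a p-value. Only the count was used here, to rank sites, for the site alternative and to compare places.

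Sites were joined and offset places selected in Python 3.11.15 with numpy 2.4.6, pandas 2.3.3 and scipy 1.17.1, and figures drawn with matplotlib 3.10.9. Tags were moved by 0.5 of the fragment length per the file headers (225 bp for Ldb1, 188 bp for Tal1, 235 bp for Gata1), and IgG tags by 0.5 of their mean, 216 bp. Duplicate tags were kept. Shares carry exact binomial intervals and ratios exact conditional intervals. The code was tested on simulated data. Members, lists and measures were chosen with earlier results of these data known. Named places are the 2 with the highest caller tag number per ordered antibody pair, the 3 mutual pairs with the highest sum and the 3 places with most IgG tags, none on chromosome 18. The planned motif and gene list searches needed an mm8 genome or annotation and were not run. Alternatives are given in the closing section.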

Additional observations from a re-analysis of the deposited data

How the results depend on the processing

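No paired analysis was possible because every group holds a single library, and no replicate could be left out. Among 145 values under other settings, 80 moved by less than counting error (counts of places by less than 1.5 times), 62 moved by more, and 3, all in the mutual pairs of Ldb1 and Tal1, crossed an even ratio. The share of places with more own tags at the place, 50.9%, was not distinct from 50% and fell to 48.6% unshifted, 47.8% with 50 bp windows and 38.2% under the median rule. The own maximum, at the place in 40.4% and at the neighbour in 42.5%, turned to 41.7% and 41.2% with 1 tag per position. Leaving out overlapping sites, single pairs or the chromosome 17 place, and pairs with 10 or more IgG tags among mutual pairs and by offset, were chosen after seeing the data. The cause of each move was not tested, except that chaining limits set the bounds and the median rule keeps fewer sites.

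Counts of offset places are in the order all, Ldb1, Tal1, Gata1. A chaining limit of 100 bp gave 1629, 344, 693 and 592, and 300 bp gave 539, 105, 218 and 216. An upper bound of 500 bp gave 577 in all and 179 for Gata1. Sites with at least their list's median tag number gave 178, 31, 83 and 64, and edge distances 572 in all and 228 for Tal1. Median offsets for Ldb1 with Tal1, Ldb1 with Gata1 and Tal1 with Gata1 were 230, 200 and 230 bp with the 100 bp limit and 520, 535 and 540 bp with 300 bp, and 460 bp for Ldb1 with Gata1 under the median rule.

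Ratios of place to neighbour are in the order own, neighbour's and remaining antibody, which were 0.360, 0.166 and 0.186. They were 0.450, 0.197 and 0.218 with 1 tag per position, 0.341, 0.179 and 0.194 with unshifted tags, 0.333, 0.153 and 0.168 with windows of 50 bp, 0.338, 0.148 and 0.180 without places of 10 or more IgG tags, 0.384, 0.208 and 0.202 under the median rule, and 0.350, 0.150 and 0.178 without overlapping sites. The share of places with more tags at the place moved under the median rule to 38.2%, 7.87% and 19.1%. For the own antibody not called at the neighbour it was 71.2% under that rule, 83.0% unshifted and 81.6% with 50 bp windows. For the neighbour's antibody it was 7.22% unshifted and 7.0% with 50 bp, and for IgG 27.2% with 50 bp. The highest density of the neighbour's antibody lay at the place in 2.06% with 1 tag per position and at the neighbour in 77.9% unshifted. In the mutual pairs of Ldb1 and Tal1, the tag ratio of the Ldb1 site to the Tal1 site was 2.03 for Ldb1 and 3.41 for IgG without the chromosome 11 pair. Without that pair and the chromosome 9 pair the Ldb1, Tal1, Gata1 and IgG ratios were 2.11, 0.409, 0.947 and 2.79, and without pairs of 10 or more IgG tags 1.78, 0.328, 0.851 and 0.889. With all pairs Gata1 had 1.09 and IgG 1.51, so both crossed 1. By offset, the own ratio with no own call at the neighbour was 1.85 up to 400 bp without the chromosome 17 place, and 2.42 beyond 700 bp without the chromosome 11 pair, without both pairs, or without pairs of 10 or more IgG tags. Depth limits single places, where a median of 14 own tags stood behind each value.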
